A study of Mus musculus with 6 samples.

Results

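The suppressor of cytokine signalling (SOCS) family was followed in GMPs, the granulocyte/macrophage progenitors of the bone marrow. Its 8 genes are Cish and Socs1 to Socs7. They were found on the array by gene symbol and gene identifier, so that older shared names did not mix Socs4, Socs6 and Socs7. This gave 24 of 45037 probe sets and 8 of 18193 named genes, with at least 1 probe set each. RNA was measured on 6 Affymetrix Mouse Genome 430 2.0 arrays, 2 per genotype, each labelled as from 1 mouse of the BL6 strain. The IRF4/8 DKO mice, which lack both IRF4 and IRF8, were 1 male and 1 female of 16 weeks. The IRF8 KO mice, which lack IRF8 alone, were a female of 12 weeks (replicate 1) and a male of 22 weeks (replicate 2). The wild-type (WT) mice were a male of 12 weeks (replicate 1) and a female of 19 weeks (replicate 2). The sort took cells with Kit, CD34 and high Fc gamma receptor on their surface, and without lineage markers, Sca1 or the IL-7 receptor. The labels do not say how the alleles were made or in which cells they were lost.

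Cytokine receptors activate Janus kinases (JAKs), which phosphorylate STAT transcription factors. STATs then induce SOCS genes, whose proteins bind phosphorylated receptors or kinases through an SH2 domain and recruit a ubiquitin ligase through a carboxy-terminal SOCS box, so that the signal shuts itself off. In blood cells SOCS1 is known for restraining interferon gamma signalling, SOCS3 for restraining the G-CSF receptor and IL-6 family receptors, and CIS (the product of Cish) and SOCS2 as products of STAT5 target genes. SOCS4 to SOCS7 have longer amino-terminal regions and are less tied to cytokines.

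Promoter sequences of 4 of the 8 genes (Cish, Socs1, Socs3 and Socs4) were in the RefSeq table used (GRCm38.p6). The windows below run from 250 bases before to 25 bases after the annotated start, 5′ to 3′ on the gene's strand. They are shown because they hold letters of the kind known to be bound by STATs or by IRFs, the family of the deleted factors. Capitals mark TTCNNNGAA (the STAT type) in Cish and Socs3, and, in Socs1, 2 overlapping matches of GAAA, any 2 bases and GAAA again (the IRF type). Both strands were searched.
Cish, chr9:107296409-107296683, plus strand: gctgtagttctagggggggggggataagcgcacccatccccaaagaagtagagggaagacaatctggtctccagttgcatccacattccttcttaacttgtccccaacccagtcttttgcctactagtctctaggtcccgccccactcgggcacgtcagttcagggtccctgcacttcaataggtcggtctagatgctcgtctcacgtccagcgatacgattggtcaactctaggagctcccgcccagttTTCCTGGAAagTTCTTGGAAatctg
Socs1, chr16:10785512-10785786, minus strand: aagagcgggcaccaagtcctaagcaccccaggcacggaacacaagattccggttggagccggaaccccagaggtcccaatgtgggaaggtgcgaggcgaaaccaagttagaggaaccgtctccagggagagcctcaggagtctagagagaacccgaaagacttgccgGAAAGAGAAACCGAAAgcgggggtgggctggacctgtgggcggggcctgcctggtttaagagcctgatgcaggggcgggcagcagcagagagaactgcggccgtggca
Socs3, chr11:117969342-117969616, minus strand: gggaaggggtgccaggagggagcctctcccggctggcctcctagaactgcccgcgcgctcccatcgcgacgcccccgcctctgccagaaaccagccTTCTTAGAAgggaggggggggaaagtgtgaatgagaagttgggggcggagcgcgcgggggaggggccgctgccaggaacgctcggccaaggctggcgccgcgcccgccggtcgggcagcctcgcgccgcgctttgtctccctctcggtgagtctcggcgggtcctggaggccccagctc
Cish held 2 STAT-type matches just after its annotated start, and Socs3 held 1 before it. Of all 32851 RefSeq windows of 300 bases, 8.3% held a STAT-type match and 3.44% an IRF-type match. The Socs4 window held neither. A match describes these letters only.

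Some facts of the whole series bear on the values. Median intensity was 37.5 and 34.1 in IRF4/8 DKO, 38.6 and 38.4 in IRF8 KO, and 45.3 and 41.7 in WT. Of the kept probe sets, 14.2% differed over 2-fold between the arrays of IRF4/8 DKO, 24% in IRF8 KO and 6.26% in WT. Among the kept SOCS probe sets the shares were 10.5%, 36.8% and 5.26%. Over all probe sets, the IRF8 KO arrays correlated at r = 0.938 with each other, below the 0.962 between IRF8 KO replicate 1 and IRF4/8 DKO replicate 1. Irf8 signal was not lower in the knockouts, with 2611 and 4778 in IRF4/8 DKO, 3811 and 2602 in IRF8 KO, and 2588 and 3052 in WT at its brighter probe set. At its other probe set all 4 knockout arrays lay above WT, with 934 and 1900 in IRF4/8 DKO, 1333 and 1131 in IRF8 KO, and 507 and 704 in WT. Irf4 read 66.0 and 54.6 in IRF4/8 DKO, 13.8 and 7.66 in IRF8 KO, and 32.1 and 23.4 in WT at 1 of its 2 probe sets, where it was highest in IRF4/8 DKO, and the genotypes overlapped at the other (11.8 to 33.1). The labels do not place these probes inside or outside the deletion, so this does not check the genotypes. Of the genes that define the gate, Kit read 1680 to 2426 over the 6 arrays, and Cd34 read 590.3 and 509 in IRF4/8 DKO, 440.3 and 669 in IRF8 KO, and 1747 and 1401 in WT. Fcgr3, an Fc gamma receptor gene of the gate, lay on the other side of WT, with 2516 and 5863 in IRF4/8 DKO, 2618 and 6315 in IRF8 KO, and 1090 and 1259 in WT (limma adjusted p = 0.271 and 0.177 against WT).

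No SOCS probe set passed the limma test in any comparison. Of the 24 probe sets, 19 were kept by the filter on low values (above the 40th percentile of the array on at least 2 of 6 arrays), and these cover every gene but Socs1. In IRF4/8 DKO against WT, 0 of 19 had a limma adjusted p under 0.05, where 0.299% of all 29783 kept probe sets did. At an unadjusted p under 0.05 there were also 0 of 19 (background 9.05%), 0 lower (background 5.61%) and 0 higher (background 3.44%). In IRF8 KO against WT, 0 of 19 passed (background 0.0302%), while at an unadjusted p under 0.05 there were 5 (background 13.5%), all of them lower (background 8.53%) and 0 higher (background 4.93%). The 5 became 2 without WT replicate 2 (background 4.46%), 3 without WT replicate 1 (background 4.63%), 3 with each array centred on its median (background 6.07%), and 2 of 11 with the filter at the 60th percentile (background 7.19%). In IRF4/8 DKO against IRF8 KO, 0 of 19 passed (background 0%), and at an unadjusted p under 0.05 there was 1 (background 8.52%), which was higher (background 4.82%), with 0 lower (background 3.7%). Without the filter, IRF8 KO against WT had 4 of 24 lower at an unadjusted p under 0.05 (background 6.88%). Then 1 was higher, Socs2 probe set 1442586_at. The 2 comparisons against WT share the WT arrays. With 2 arrays a genotype the p-values measure only the spread between these mice.

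Most kept SOCS probe sets lay below WT in both knockouts. For IRF4/8 DKO against WT this held for 17 of 19, where it held for 53.1% of all kept probe sets. For 9 of them both IRF4/8 DKO arrays read below both WT arrays (background 25.3%), and for 0 both read above (background 18.3%). For IRF8 KO it held for 14 of 19, against 53.9% of all. Here 10 had both arrays below both WT arrays (background 25.9%) and 1 had both above (background 19.8%). Without the filter on low values, 18 of 24 lay below WT in IRF4/8 DKO, against 52.5% of all. In IRF8 KO 16 of 24 then did, against 49.9% of all. Probe sets of a gene share their target, so neither the 19 nor the 24 are independent values. Then 1 probe set a gene was taken, the kept one with the highest mean log2 value. So counted, 6 of 7 genes lay below WT in IRF4/8 DKO, against 47.5% of all genes. In IRF8 KO 4 of 7 did, against 46.9% of all genes. The gene medians were -0.27 and -0.24 on the log2 scale, against 0.03 and 0.04 over all 13267 genes. When each array was centred on its median, 13 of 19 lay below WT in IRF4/8 DKO, against 36% of all, and the median log2 fold change of all probe sets became 0.18 (otherwise -0.04). The median of the SOCS genes in IRF4/8 DKO was then -0.04. In IRF8 KO 14 of 19 still lay below WT under that centring, against 44.6% of all. Without IRF4/8 DKO replicate 2, 13 of 19 lay below WT. Without WT replicate 1 the IRF8 KO median was 0.13, the opposite sign.

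**Figure D1:**
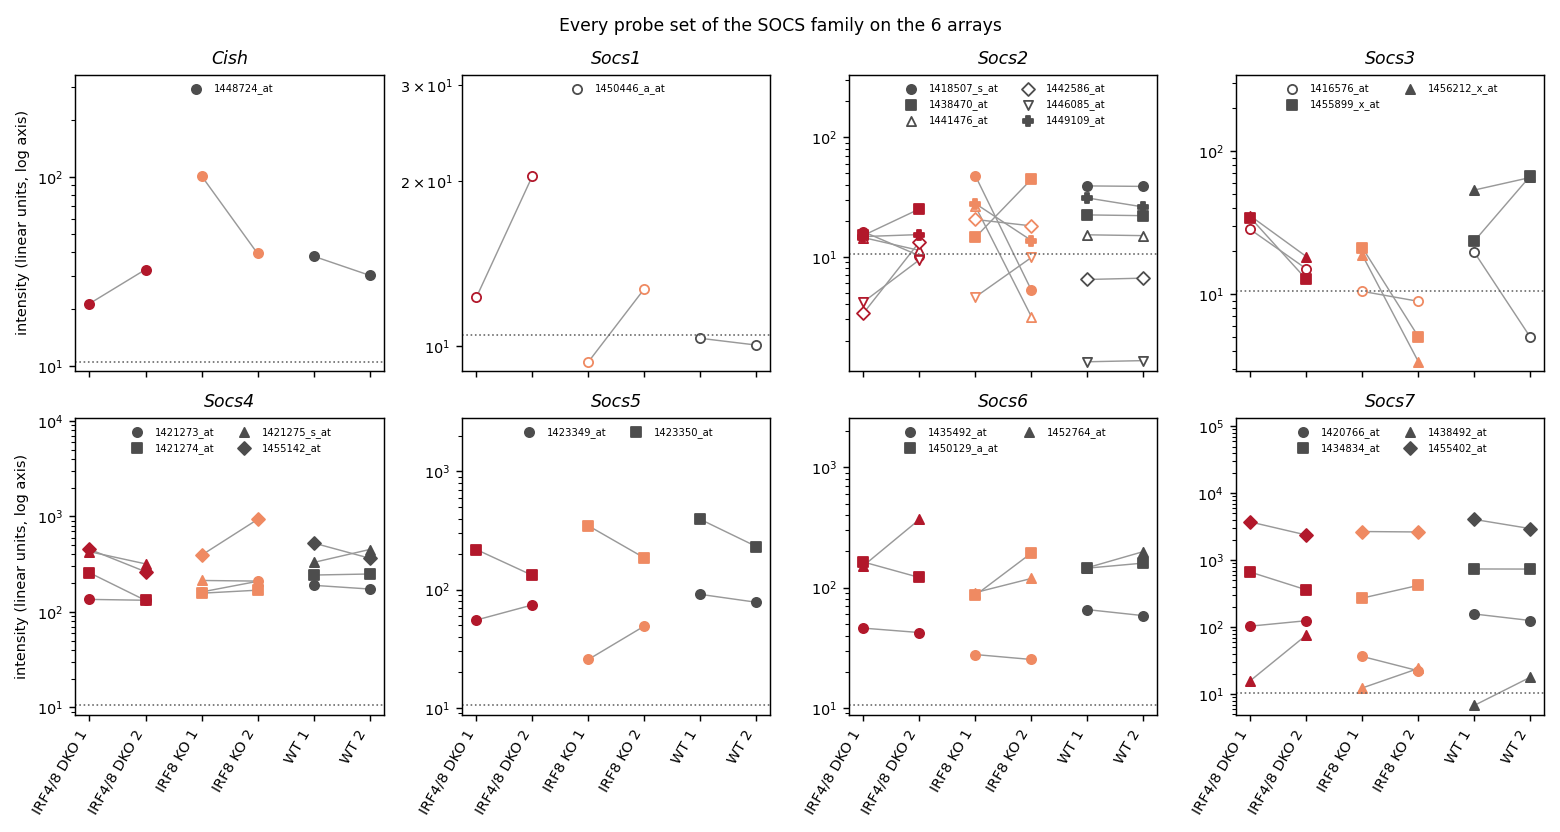
Intensity (linear units on a log axis, a different range per panel) of every SOCS probe set on the 6 arrays, IRF4/8 DKO left, IRF8 KO in the middle, WT right. Symbols are probe sets, open where the filter on low values left them out, grey lines join the 2 arrays of a genotype, and the dotted line is the pseudocount of 10.5. Socs1 and most Socs2 and Socs3 probe sets sit near the dotted line, and Socs4 to Socs7 mostly well above it.

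Cish, whose product competes with STAT5 for activated receptors, read 21.3 and 32.3 in IRF4/8 DKO, 101 and 39.3 in IRF8 KO, and 38.0 and 30.1 in WT. Its 2 IRF8 KO arrays lay above all others, replicate 1 far more so, and IRF4/8 DKO and WT overlapped. Its log2 fold change was -0.27 ± 0.48 SE in IRF4/8 DKO and 0.75 ± 0.48 SE in IRF8 KO against WT (limma adjusted p = 0.921 and 0.537). Between IRF4/8 DKO and IRF8 KO it was -1.01 ± 0.48 SE (limma adjusted p = 0.601), with a 95% interval from -2.09 to 0.07. Without IRF8 KO replicate 1 the IRF8 KO against WT value was 0.17.

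Socs1 was at the lower end of what the array measured. Its probe set, 1450446_a_at, read 12.3 and 20.5 in IRF4/8 DKO, 9.37 and 12.7 in IRF8 KO, and 10.3 and 10.05 in WT. Only IRF4/8 DKO replicate 2 lay above its array's 40th percentile (19.4), so the gene was left out of the main test. In the fit without that filter the log2 fold change was 0.36 ± 0.30 SE in IRF4/8 DKO and 0.05 ± 0.30 SE in IRF8 KO against WT (limma adjusted p = 0.882 and 0.962).

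Socs2, which restrains growth hormone signalling and is induced by STAT5, had 6 probe sets, 3 of them kept, and these did not share an order of genotypes. Probe set 1418507_s_at read 16.2 and 10.2 in IRF4/8 DKO, 47.4 and 5.26 in IRF8 KO, and 39.1 and 38.7 in WT. It was low in both IRF4/8 DKO arrays, and its IRF8 KO arrays spanned the range of all others. Probe set 1449109_at read 14.8 and 15.3 in IRF4/8 DKO, 27.8 and 13.7 in IRF8 KO, and 31.0 and 26.1 in WT, with the same order of means. Both sets passed the filter only on the WT arrays and IRF8 KO replicate 1. Against WT in IRF4/8 DKO the log2 fold change was -1.07 ± 0.58 SE for 1418507_s_at and -0.61 ± 0.39 SE for 1449109_at (limma adjusted p = 0.661 and 0.73). The third kept set, 1438470_at, read 15.1 and 25.1 in IRF4/8 DKO, 14.6 and 44.5 in IRF8 KO, and 22.4 and 22.1 in WT. Its genotypes overlapped, and in IRF8 KO the replicate that was low at 1418507_s_at was the high one here. The 3 probe sets left out read 1.33 to 26.4. One of them, 1442586_at, lay above WT in IRF8 KO with a log2 fold change of 0.80 ± 0.33 SE in the fit without the filter (limma adjusted p = 0.388).

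Socs3, the feedback inhibitor of G-CSF and IL-6 signalling, had its highest kept values in WT. The filter itself favours this, since neither kept set would have passed without a WT array. Probe set 1456212_x_at passed on both WT arrays and IRF4/8 DKO replicate 1. Probe set 1455899_x_at passed on WT replicate 2 and IRF4/8 DKO replicate 1. Probe set 1456212_x_at read 35.2 and 18.3 in IRF4/8 DKO, 18.7 and 3.36 in IRF8 KO, and 53.4 and 65.3 in WT. Both WT arrays lay above all 4 knockout arrays. The log2 fold change against WT was -0.94 ± 0.47 SE in IRF4/8 DKO (limma adjusted p = 0.631) and -1.79 ± 0.47 SE in IRF8 KO (limma adjusted p = 0.173, 95% interval -2.86 to -0.72). Because the IRF8 KO mean of 11.025 lay close to the pseudocount of 10.5, the size depends on it, and with a pseudocount of 39.23 the IRF8 KO value was -0.99. Probe set 1455899_x_at, of the same sign, read 34.2 and 12.7 in IRF4/8 DKO, 21.1 and 5.03 in IRF8 KO, and 23.5 and 67.0 in WT. The suffix of both marks probes that may bind other transcripts. The remaining set, 1416576_at, was left out by the filter and did not share the order, with 28.3 and 14.99 in IRF4/8 DKO, 10.4 and 8.89 in IRF8 KO, and 19.6 and 4.98 in WT. Without IRF8 KO replicate 1, the lone IRF8 KO array gave a log2 fold change of -2.33 for 1456212_x_at, which then passed (limma adjusted p = 0.0263), and without replicate 2 the value was -1.25. The IRF8 KO against WT difference was -2.20 between the males and -1.38 between the females.

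Socs4 and Socs5 form a pair of closely related genes, reported in cell lines to act on the epidermal growth factor receptor. The 4 Socs4 probe sets gave no common order of genotypes. Probe set 1455142_at read 453 and 264 in IRF4/8 DKO, 393 and 929.98 in IRF8 KO, and 527 and 365 in WT, with the IRF8 KO mean highest through replicate 2. Probe set 1421275_s_at had its lowest values in IRF8 KO, with 428 and 319 in IRF4/8 DKO, 213 and 210.2 in IRF8 KO, and 329 and 450.3 in WT. The log2 fold change of IRF8 KO against WT was 0.45 ± 0.53 SE for 1455142_at and -0.83 ± 0.42 SE for 1421275_s_at (limma adjusted p = 0.751 and 0.431). The other Socs4 sets, 1421273_at and 1421274_at, ranged from 132 to 257. Socs5 probe set 1423349_at read 55.4 and 74.3 in IRF4/8 DKO, 25.7 and 49.3 in IRF8 KO, and 91.2 and 78.2 in WT. Its 3 genotypes did not overlap, with IRF8 KO lowest and IRF4/8 DKO between. The log2 fold change was -0.35 ± 0.43 SE in IRF4/8 DKO and -1.03 ± 0.43 SE in IRF8 KO against WT (limma adjusted p = 0.88 and 0.346). Probe set 1423350_at, the brighter one, had 218 and 132 in IRF4/8 DKO, 347 and 185 in IRF8 KO, and 393 and 231 in WT, so here the IRF4/8 DKO mean was lowest (-0.79 ± 0.51 SE against WT, limma adjusted p = 0.736).

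Socs6 and Socs7 are also paired by sequence, and both have been linked to insulin signalling. Socs6 probe set 1435492_at read 46.1 and 42.4 in IRF4/8 DKO, 27.8 and 25.3 in IRF8 KO, and 65.7 and 58.5 in WT. The arrays of the genotypes did not overlap, with IRF8 KO lowest, but 2 arrays a genotype say little about spread. The log2 fold change was -0.41 ± 0.37 SE in IRF4/8 DKO and -0.97 ± 0.37 SE in IRF8 KO (limma adjusted p = 0.829 and 0.316). Probe set 1452764_at read 152 and 369 in IRF4/8 DKO, 91.1 and 119 in IRF8 KO, and 147 and 200 in WT, where IRF8 KO was again lowest (log2 fold change -0.66 ± 0.51 SE against WT, limma adjusted p = 0.617). At 1450129_a_at the IRF8 KO arrays (86.6 and 194) enclosed all others.

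Socs7 had the lowest p of the family. Probe set 1420766_at read 104 and 125 in IRF4/8 DKO, 36.65 and 22.4 in IRF8 KO, and 158 and 126 in WT. Both IRF8 KO arrays were the lowest of the 6, and the higher IRF4/8 DKO array came within 1 unit of the lower WT array. The log2 fold change of IRF8 KO against WT was -1.95 ± 0.42 SE, a 3.85-fold lower level (limma adjusted p = 0.116, 95% interval -2.892 to -0.998). For IRF4/8 DKO against WT it was -0.28 ± 0.42 SE (limma adjusted p = 0.903). Read within each sex, with 1 array a genotype and so no test, the IRF8 KO against WT difference was -2.35 in males and -1.54 in females. Without IRF8 KO replicate 1 the IRF8 KO value was -2.20 and passed (limma adjusted p = 0.0315). Probe set 1434834_at had 667 and 362 in IRF4/8 DKO, 273 and 423 in IRF8 KO, and 743 and 740.04 in WT. All 4 knockout arrays lay below WT, and the IRF8 KO value was -1.10 ± 0.45 SE (limma adjusted p = 0.34). The brightest Socs7 set, 1455402_at, read 3738 and 2385 in IRF4/8 DKO, 2690 and 2650 in IRF8 KO, and 4075.5 and 2973 in WT. Its difference was small, at -0.22 ± 0.29 SE in IRF4/8 DKO and -0.38 ± 0.29 SE in IRF8 KO (limma adjusted p = 0.888 and 0.61), and the 95% interval in IRF8 KO ran from -1.04 to 0.28. It overlapped the interval of 1420766_at, which ended at -0.998, and the difference between these probe sets was not tested. The dimmest set, 1438492_at, lay above WT in IRF4/8 DKO through replicate 2 (76.6, against 6.83 and 18.01 in WT).

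Markers of other cells differed between the genotypes on the same arrays. A listed gene counts as measured, here and in the lists below, if it had a probe set kept by the filter on low values. The summed level of 8 measured of 11 listed erythroid markers was 6202 and 4455 in IRF4/8 DKO, 4358 and 4067 in IRF8 KO, and 9111 and 6958 in WT. Most of the knockout sums was Tfrc, with 5942 and 4271 in IRF4/8 DKO, 3336 and 3777 in IRF8 KO, and 3158 and 4677 in WT. Car2 read 142.5 and 56.1 in IRF4/8 DKO, 553 and 114 in IRF8 KO, and 4116 and 1773 in WT. By log2 fold change 7 of the 8 lay below WT in IRF4/8 DKO, all but Tfrc, and 8 in IRF8 KO. For 10 of 11 mast cell, basophil and eosinophil markers it was 1716 and 1891 in IRF4/8 DKO, 5648 and 3423 in IRF8 KO, and 14674 and 9655 in WT. For 9 of 10 stem and multipotent progenitor markers it was 1214 and 425 in IRF4/8 DKO, 1069 and 778 in IRF8 KO, and 6247 and 3693 in WT. The sums of the erythroid, mast cell and stem cell lists were highest in WT, as were 1456212_x_at of Socs3, 1423349_at of Socs5, 1435492_at of Socs6, and 1420766_at and 1434834_at of Socs7. The 8 of 10 monocyte and macrophage markers summed to 11260.5 and 17519 in IRF4/8 DKO, 9367 and 11395 in IRF8 KO, and 4440 and 3843 in WT, where the sum was lowest. By log2 fold change 6 of these lay above WT in each knockout and 2, Ly86 and Fcgr1, below. Ly86 read 11.0 and 3.52 in IRF4/8 DKO, 4.70 and 3.22 in IRF8 KO, and 625 and 575 in WT. It passed in both knockouts against WT (limma adjusted p = 0.0078 and 0.0085). The 10 of 12 neutrophil maturation markers summed to 29218 and 56970.5 in IRF4/8 DKO, 34125 and 59591 in IRF8 KO, and 13364 and 33787 in WT. The 5 of 8 megakaryocyte markers summed to 83.8 and 115 in IRF4/8 DKO, 1683 and 582 in IRF8 KO, and 4759 and 1161 in WT. The 6 of 7 dendritic cell markers summed to 406 and 586 in IRF4/8 DKO, 636 and 933 in IRF8 KO, and 1533 and 1184 in WT, where the sum was highest. By log2 fold change 4 of these lay below WT in IRF4/8 DKO and 2 above, and in IRF8 KO 5 below and 1 above. Cd74 read 13.6 and 10.4 in IRF4/8 DKO, 62.0 and 207 in IRF8 KO, and 754 and 365 in WT. The 5 of 7 B lineage markers summed to 1199 and 1875 in IRF4/8 DKO, 1518 and 1949 in IRF8 KO, and 733 and 685 in WT, where the sum was lowest. Much of the knockout sums was Vpreb1, with 668 and 1006 in IRF4/8 DKO, 771 and 1275 in IRF8 KO, and 187 and 185 in WT. By log2 fold change 3 of the B lineage markers lay above WT in IRF4/8 DKO and 2 below, and in IRF8 KO 4 above and 1 below. The 2 of 7 T and NK cell markers summed to 31.9 to 78.0 over the 6 arrays. No measured marker of these lists was at 0, but any marker too dim for the filter is not among them. The part of these cells in the SOCS values was not tested, and in RNA from sorted populations fewer cells of a type and less RNA per cell cannot be told apart.

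**Figure D2:**
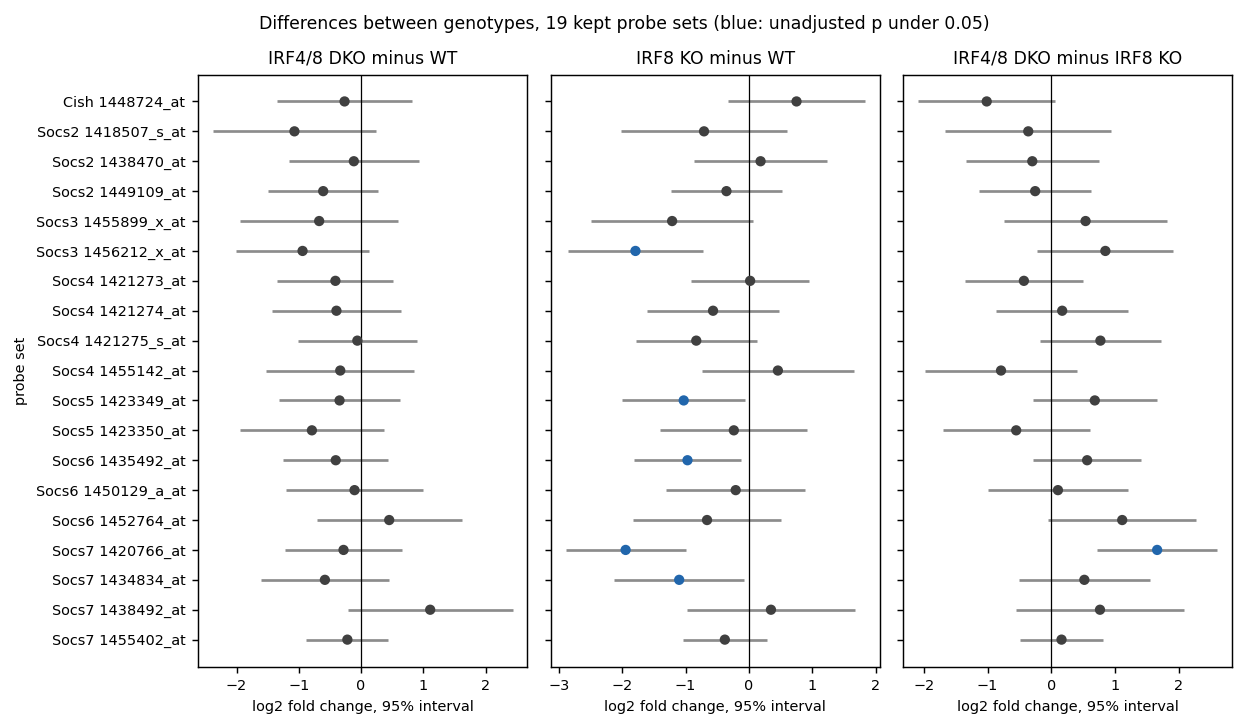
Log2 fold changes (points) with 95% intervals (lines) of the 19 kept SOCS probe sets in 3 comparisons, with blue points at an unadjusted p under 0.05. The intervals that exclude 0 are 5 in IRF8 KO against WT and 1 in IRF4/8 DKO against IRF8 KO, and no point passed after adjustment.

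The added loss of IRF4 was read from IRF4/8 DKO against IRF8 KO. Socs7 probe set 1420766_at lay 3.17-fold above IRF8 KO (log2 fold change 1.66 ± 0.42 SE, limma adjusted p = 0.519), and all arrays of each genotype kept to their own side. Socs6 probe set 1452764_at had a log2 fold change of 1.11 ± 0.51 SE and Socs4 probe set 1421275_s_at of 0.77 ± 0.42 SE (limma adjusted p = 0.596 and 0.645). Probe sets of the same gene differed. The brightest Socs7 set, 1455402_at, was at 0.16 ± 0.29 SE with overlapping arrays (limma adjusted p = 0.892). The brightest Socs4 set, 1455142_at, had the opposite sign, at -0.79 ± 0.53 SE (limma adjusted p = 0.694). Cish was at -1.01 ± 0.48 SE (limma adjusted p = 0.601). Of the 19 kept SOCS probe sets, 7 lay below IRF8 KO, against 48.8% of all. With 1 probe set a gene, 4 of 7 lay below it, against 51% of all genes. The median log2 fold change of the 7 was -0.30, against -0.01 over all genes. For 5 of the 19 probe sets both IRF4/8 DKO arrays were higher (background 19.3%). For 2, Cish and Socs4 probe set 1421273_at, both were lower (background 17.3%).

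All 4 IRF8-deficient arrays were also set against WT within the same fit. Here 0 of 19 passed (background 0.601%), and 15 lay below WT, against 53.8% of all. At an unadjusted p under 0.05 there were 2 (background 11.6%), both lower (background 7.35%), and 0 higher (background 4.23%). Socs3 probe set 1456212_x_at had the lowest p, with a log2 fold change of -1.37 ± 0.41 SE (limma adjusted p = 0.221), followed by Socs7 probe set 1420766_at with -1.11 ± 0.36 SE (limma adjusted p = 0.264). For 5 probe sets all 4 arrays were below both WT arrays (background 12.5%), and for 0 all were above (background 8.51%). These were 1456212_x_at of Socs3, 1423349_at of Socs5, 1435492_at of Socs6, and 1420766_at and 1434834_at of Socs7. Without IRF8 KO replicate 1 the Socs3 value was -1.63 and passed (limma adjusted p = 0.0349).

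Genes whose products work with the SOCS proteins were counted from 5 lists, with 1 probe set a gene. In the 3 pairwise comparisons and in all IRF8-deficient arrays against WT, 0 genes of any of these lists passed the limma test. Of the JAKs and STATs, 10 of 11 were measured, and their median log2 fold change was 0.16 in IRF4/8 DKO and 0.06 in IRF8 KO against WT. Jak2, the kinase of the erythropoietin, thrombopoietin and GM-CSF receptors, had the lowest p, in IRF4/8 DKO against IRF8 KO (log2 fold change -0.80 ± 0.46 SE, limma adjusted p = 0.659). Stat6 was next, in all IRF8-deficient arrays against WT (0.54 ± 0.32 SE, limma adjusted p = 0.582). In IRF4/8 DKO against WT Stat6 had 0.53 ± 0.37 SE (limma adjusted p = 0.767). Stat5b followed, in IRF8 KO against WT (0.50 ± 0.34 SE, limma adjusted p = 0.561).

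Cytokine receptor genes stood mostly above WT. Of 24 measured of 28, 19 lay above WT in IRF4/8 DKO (median log2 fold change 0.51) and 17 in IRF8 KO (median 0.57), against medians of 0.03 and 0.04 over all genes. Of all 13267 genes, 6964 lay above WT in IRF4/8 DKO and 7041 in IRF8 KO. Ifngr1, the ligand-binding chain of the interferon gamma receptor that SOCS1 acts on, read 4896 and 4226 in IRF4/8 DKO, 5175 and 4933 in IRF8 KO, and 2773 and 2815 in WT. All 4 knockout arrays were higher (log2 fold change 0.70 ± 0.20 SE and 0.85 ± 0.20 SE, limma adjusted p = 0.292 and 0.143). Csf1r, the macrophage colony-stimulating factor receptor, lay 3.31-fold above WT in IRF4/8 DKO and 2.11-fold in IRF8 KO (limma adjusted p = 0.28 and 0.384). Epor, the erythropoietin receptor and also an erythroid marker here, read 24.3 and 25.1 in IRF4/8 DKO, 14.0 and 11.85 in IRF8 KO, and 128 and 57.2 in WT (log2 fold change -1.46 ± 0.44 SE and -2.05 ± 0.44 SE, limma adjusted p = 0.317 and 0.116).

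No gene of the ligase that the SOCS box recruits passed the test. Its 8 listed genes were all measured, with a median log2 fold change of -0.08 in IRF4/8 DKO and 0.07 in IRF8 KO against WT. Cul5, the scaffold of that ligase, had -0.65 ± 0.33 SE in IRF4/8 DKO and 0.07 ± 0.33 SE in IRF8 KO. The SOCS box partner Elob had 0.83 ± 0.45 SE and 0.31 ± 0.45 SE. Rbx1, a ring finger gene also on the list, had -0.77 ± 0.42 SE and -0.69 ± 0.42 SE at a dim probe set (35.1 to 97.3). The lowest limma adjusted p of the list against WT was 0.638 in IRF4/8 DKO and 0.518 in IRF8 KO. The 16 other inhibitors of cytokine signalling had medians of -0.15 and -0.12 in the same order of genotypes. Among them the STAT inhibitor Pias3 lay 2.34-fold above WT in IRF8 KO (limma adjusted p = 0.279). The adaptor gene Sla, whose product dampens receptor signalling, lay 2.04-fold above IRF8 KO in IRF4/8 DKO (limma adjusted p = 0.537), and the phosphatase gene Dusp1 2.51-fold below WT in IRF4/8 DKO (limma adjusted p = 0.629).

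Genes that STATs are known to induce gave a median of -0.05 in IRF4/8 DKO and 0.11 in IRF8 KO over 16 measured of 16, and individual genes were well above WT. Cebpd, a transcription factor gene induced by STAT3, read 1118 and 3251 in IRF4/8 DKO, 1447 and 3530.3 in IRF8 KO, and 582 and 410.5 in WT. All 4 knockout arrays lay above WT (log2 fold change 1.94 ± 0.57 SE and 2.19 ± 0.57 SE, limma adjusted p = 0.305 and 0.173). Bcl6 lay 2.63-fold above WT in IRF4/8 DKO and 1.77-fold in IRF8 KO, and the interferon-induced Irf1 1.94-fold and 1.85-fold (limma adjusted p from 0.311 to 0.432). The kept Socs3 probe sets, also of a gene that STATs induce, had log2 fold changes below 0 against WT in both knockouts. In IRF4/8 DKO the arrays of 1455899_x_at overlapped WT (-0.67 ± 0.56 SE, limma adjusted p = 0.81). The left-out 1416576_at was at 0.54 ± 0.40 SE there in the fit without the filter (limma adjusted p = 0.855).

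**Figure D3:**
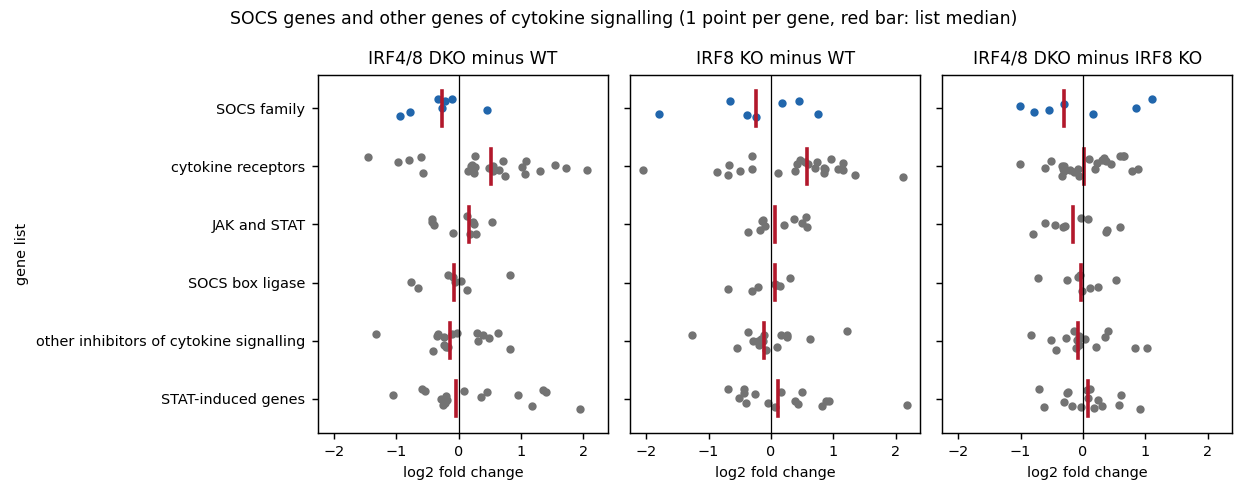
Log2 fold change (horizontal axis) of each gene in 6 lists, 1 point a gene at the probe set with the highest mean, in 3 comparisons. Red bars are list medians. The SOCS median is -0.27 in IRF4/8 DKO and -0.24 in IRF8 KO against WT, and the cytokine receptor median 0.51 and 0.57.

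The gene whose level varied most among the representative SOCS probe sets was Socs3 (variance 0.808 on the log2 scale). Of 13267 genes, the levels of Med7, Bora and Nkiras1 followed it most closely over the 6 arrays, with Pearson r of 0.993, 0.991 and 0.988. Med7, a Mediator subunit gene, read 671 and 496 in IRF4/8 DKO, 522 and 373 in IRF8 KO, and 718 and 791 in WT. With 6 arrays, 265 genes had r over 0.9.

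**Figure D4:**
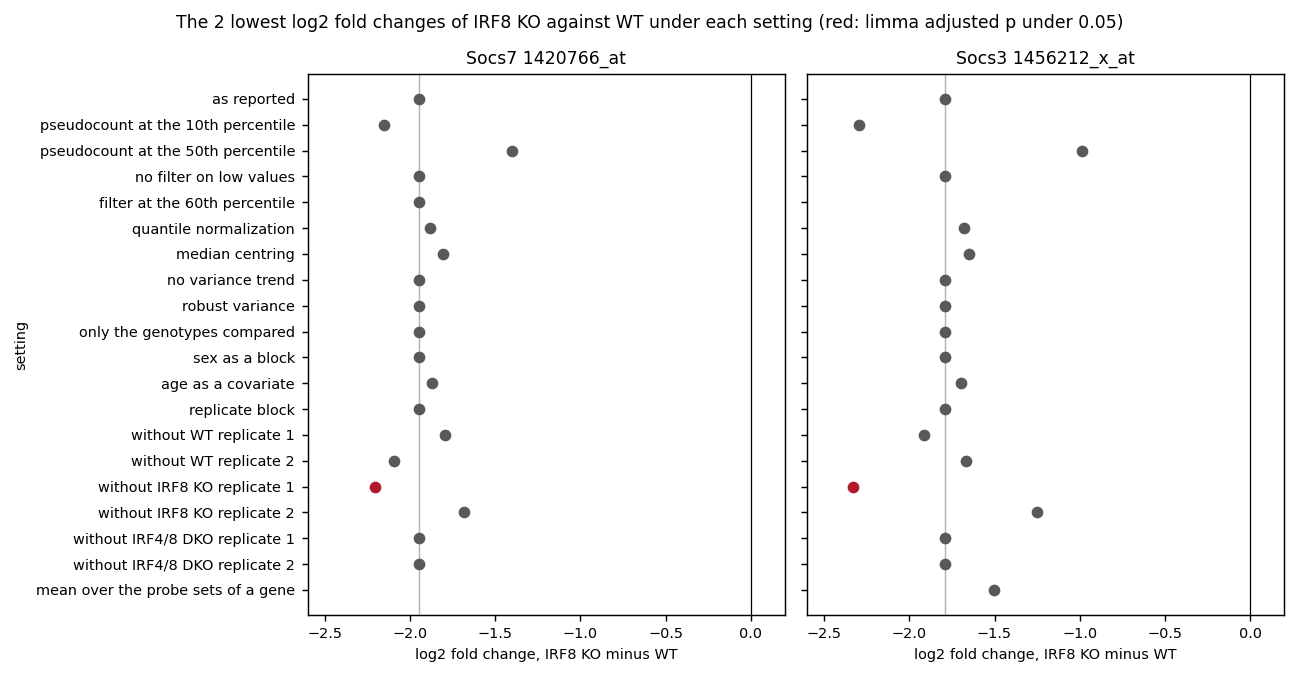
Log2 fold change of IRF8 KO against WT (horizontal axis) for Socs7 probe set 1420766_at and Socs3 probe set 1456212_x_at under each way of processing (vertical axis). The vertical grey line is the reported value, a missing point means that the setting gave no value, and red marks a limma adjusted p under 0.05. All points lie below 0, and the ones past the threshold are those without IRF8 KO replicate 1 (-2.20 and -2.33).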

How the data were processed

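The deposited values are linear intensities. The authors normalized the arrays in dChip 1.3 and took model-based values with its PM/MM difference model, per the series' design text, which names no baseline array or filter. A pseudocount of 10.5, the 25th percentile of all values, was added before taking log2, so fold changes of low genes are understated. Probe sets had to exceed the array's 40th percentile on 2 or more of 6 arrays (29783 kept, 15254 left out). One limma 3.58.1 model in R 4.3.3 covered all 6 arrays (1 mean per genotype, variance trend, no covariates), with Benjamini-Hochberg adjustment over all kept probe sets and a threshold of 0.05. Errors are standard errors of that fit. There were 3 residual and 5.84 prior degrees of freedom. The number of arrays limits the precision.

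Symbols are those of the platform annotation in GEO, brought up to RefSeq (GRCm38.p6) by gene identifier. Of all probe sets 34945 had 1 symbol, 932 several and 9160 none. Where 1 value per gene was needed, the kept probe set of highest mean was taken. All SOCS members were named, of each list up to 3 genes with the lowest p in any comparison, and the 3 genes most correlated with the most variable member. Members and lists were chosen with earlier results of these data known. Alternatives were other pseudocounts (3.9 and 39.23), filters, scalings, variance models and covariates, each array left out, and the mean over a gene's probe sets. Arrays were not paired by replicate number, and a fit with that number as a block is given among the alternatives.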

Additional observations from a re-analysis of the deposited data

Results flagged for a closer look

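Each genotype had 1 male and 1 female array, so the difference between genotypes can be read within each sex. In IRF4/8 DKO, IRF8 KO and WT the males were 16, 22 and 12 weeks old, the females 16, 12 and 19. Sex and age therefore cannot be told apart in these differences. For the probe set that represents each gene, the following differences had opposite signs in males and females. None was tested, since each sex and genotype has 1 array, and signs opposed in 38.5%, 41.8% and 51.2% of all kept probe sets for IRF4/8 DKO and then IRF8 KO, each against WT, and for IRF4/8 DKO against IRF8 KO. For IRF4/8 DKO against WT, Cish had a log2 difference of -0.61 in males and 0.076 in females. Socs2 had -0.36 and 0.13 in that comparison, in the same order of sexes. In IRF8 KO against WT, Socs2 had 0.74 in males and -0.38 in females. Socs5 had -1.04 and 0.56. Between IRF4/8 DKO and IRF8 KO, Socs2 had -1.10 in males and 0.51 in females. Socs3 had 1.72 in males and -0.021 in females. Socs5 had 0.22 in males and -1.33 in females. Socs7 had 0.49 in males and -0.17 in females.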

How the results depend on the processing

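The count of SOCS probe sets called was 0 under all 12 alternatives run for each pairwise comparison and the 11 for all IRF8-deficient arrays, other than leaving out an array. Without single arrays it stayed at 0 for IRF4/8 DKO against WT and against IRF8 KO. It ranged from 0 to 2 for IRF8 KO against WT, and from 0 to 1 for all IRF8-deficient arrays, through IRF8 KO replicate 1 in both cases, and the lone remaining array is then assumed to vary like the other genotypes. The cause of the changes below was not tested.

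The median log2 fold change of the SOCS genes (spread between replicates 0.144) ranged without single arrays from -0.54 to -0.11 in IRF4/8 DKO against WT, -0.45 to 0.13 in IRF8 KO against WT, -0.30 to 0.15 in IRF4/8 DKO against IRF8 KO and -0.25 to -0.050 in all IRF8-deficient arrays against WT. With median centring it was -0.045 in IRF4/8 DKO and 0.075 in all IRF8-deficient arrays. With the mean over a gene's probe sets it was -0.61 in IRF8 KO against WT, 0.067 in IRF4/8 DKO against IRF8 KO and -0.38 in all IRF8-deficient arrays.

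Some gene values changed sign. Against WT in IRF4/8 DKO, Socs2 was 0.049 with quantile normalization and 0.10 with median centring, Socs7 0.00058 with median centring and 0.0066 with the mean over probe sets, and Socs6 -0.020 with that mean. With that mean Socs2 was -0.29 and Socs4 -0.23 in IRF8 KO against WT, Socs5 0.067 in IRF4/8 DKO against IRF8 KO, and Socs2 -0.45 and Socs4 -0.27 in all IRF8-deficient arrays. There, Socs6 was 0.075 with median centring and Socs2 -0.043 with age. Without single arrays the values that changed sign ranged, in IRF4/8 DKO against WT, from -0.35 to 0.12 for Socs2, -0.71 to 0.044 for Socs4, -0.16 to 1.06 for Socs6 and -0.54 to 0.10 for Socs7. In IRF8 KO against WT they ranged from -0.38 to 0.75 for Socs2, -0.16 to 1.07 for Socs4 and -0.67 to 0.19 for Socs5. Between IRF4/8 DKO and IRF8 KO they ranged from -0.86 to 0.27 for Socs2 and -0.16 to 0.48 for Socs7. In all IRF8-deficient arrays they ranged from -0.050 to 0.53 for Cish, -0.25 to 0.32 for Socs2, -0.25 to 0.37 for Socs4 and -0.41 to 0.20 for Socs6. The filter at the 60th percentile left out Cish, Socs2, Socs3 and Socs6 probe set 1435492_at, which then have no value.

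The count of all probe sets called moved more. For IRF4/8 DKO against WT (89 as reported) it was 13 without the filter, 45 with median centring, 27 without a variance trend, 476 with only these genotypes, 0 with sex, 229 with age, and 0 to 484 without single arrays. In IRF8 KO against WT (9 as reported) it was 21 and 5 with pseudocounts of 3.9 and 39.23, 5 without the filter, 17 with the filter at the 60th percentile, 30 with quantile normalization, 5 without a trend, 17 with robust variance, 2 with only these genotypes, 2 with sex, 136 with age, and 0 to 1090 without single arrays. For IRF4/8 DKO against IRF8 KO (0 as reported, with 2538 at an unadjusted p under 0.05) it was 2 with age and 0 to 200 without single arrays. In all IRF8-deficient arrays (179 as reported) it was 70 without the filter, 116 with the filter at the 60th percentile, 109 with median centring, 65 without a trend, 8 with sex, 355 with age, and 0 to 1020 without single arrays.

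The main fit did not pair the arrays by replicate number. Deviations of replicate 1 from its genotype mean correlated at 0.211 between IRF4/8 DKO and IRF8 KO. They correlated at 0.187 between IRF4/8 DKO and WT, and at 0.041 between IRF8 KO and WT. Whether same-numbered arrays share a factor was not tested. Blocking on the replicate number, the replicate block, the counts of all probe sets called were 216, 209, 1 and 391 in the order above. As reported they were 89, 9, 0 and 179. With the block 0 SOCS probe sets were called in each comparison.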
